A study of Mus musculus with 6 samples.

Results

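Gata3 and 9 genes of the type 2 immune programme (Il4, Il5, Il13, Il4ra, Stat6, Il17rb, Ptgdr2, Crlf2 and Hpgds) were followed in T cells sorted from mouse skin. The genes were chosen by symbol, and all 10 were found among the 15106 genes of the counts table. RNA-seq was done on 4 libraries of Tregs, the regulatory T cells, and on 2 of Teffs, the effector T cells, and the design asks how these populations differ within the skin. All cells came from FOXP3-GFP reporter mice aged 6 weeks, in which GFP marks cells that express FOXP3, the factor that defines Tregs. No treatment is named in the labels, and neither strain, sex nor whether a library is 1 animal is given there, so p-values reflect how much these libraries vary, which may include technical variation.

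Type 2 immunity is the arm of the immune system that acts against helminths and in allergy, and in skin it is known from atopic dermatitis and from wound repair. GATA3 is the transcription factor that opens the linked Il4, Il13 and Il5 genes in Th2 cells, and IL-4 in turn signals through IL-4R alpha and STAT6 to raise GATA3. GATA3 is also expressed by Tregs of barrier tissues, which usually do not secrete the type 2 cytokines. Epithelial alarmins (IL-33, IL-25 and TSLP) and prostaglandin D2 act on type 2 cells through their own receptors.

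The windows before the start sites of the 3 cytokine genes are shown because these genes are neighbours and targets of GATA3 in Th2 cells. In Tregs, Il4 had counts in Treg 1 alone, Il5 in Treg 4 alone and Il13 in none, although Gata3 was present in every library. Differences among the 3 genes in Tregs thus rest on single libraries and were not tested. Each window holds the 250 bases before the start, 5' to 3' on the gene's strand, from RefSeq on GRCm38.p6, and capitals mark the letters GATA on either strand.

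Il4 (chr11:53618666-53618915, minus strand): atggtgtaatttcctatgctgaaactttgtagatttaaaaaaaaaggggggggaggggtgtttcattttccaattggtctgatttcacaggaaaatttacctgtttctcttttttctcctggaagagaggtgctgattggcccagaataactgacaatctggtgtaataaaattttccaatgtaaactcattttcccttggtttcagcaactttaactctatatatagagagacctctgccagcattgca

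Il13 (chr11:53634703-53634952, minus strand): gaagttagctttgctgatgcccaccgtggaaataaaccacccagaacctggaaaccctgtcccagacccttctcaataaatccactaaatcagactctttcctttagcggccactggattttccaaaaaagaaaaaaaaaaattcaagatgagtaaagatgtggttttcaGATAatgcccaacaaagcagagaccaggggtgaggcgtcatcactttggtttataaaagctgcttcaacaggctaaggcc

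Il5 (chr11:53720544-53720793, plus strand): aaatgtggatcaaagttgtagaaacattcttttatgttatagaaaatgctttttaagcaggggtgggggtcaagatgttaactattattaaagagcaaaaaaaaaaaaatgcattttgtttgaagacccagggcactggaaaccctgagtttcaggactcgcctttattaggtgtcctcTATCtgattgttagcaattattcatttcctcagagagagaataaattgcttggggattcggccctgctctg

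The Il13 window has GATA 80 bases before the start, and the Il5 window has it on the other strand (TATC) 71 bases before the start. The Il4 window has none. GATA on either strand occurs in 53.6% of 32851 promoter windows of this length, and in 4 of the 10 genes described here (Il5, Il13, Stat6 and Crlf2). The letters TTCNNNNGAA, the spacing that STAT6 prefers, occur in 5.85% of windows and in Il4 alone of the 10, as TTCACAGGAA starting 167 bases before the start. Such matches describe the letters of the window and not binding.

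Counts in genes came to 4902126 to 7468778 per library, and 3 counts, used as the floor of detection, correspond to 0.397 to 0.581 CPM (counts scaled to library size). Between 5.90% and 21.6% of the 11775 genes tested had no counts in a Treg library, against 2.23% and 7.10% in Teff libraries. Treg 3, at 5.90%, was below Teff 2 in this share, and the other 3 Treg libraries were above both Teff libraries. Markers of T cells were present in every library, with a summed level of 5029 to 9751 CPM in Tregs against 9878 and 10395 CPM in Teffs, and Foxp3 was at 103 to 233 CPM in Tregs against 7.17 and 11.3 CPM in Teffs. Keratinocyte and fibroblast markers stood out in Treg 3, at 722 and 1994 CPM summed, against at most 20.7 and 8.30 CPM in the other Treg libraries. In Teff 1 these sums were 116 and 176 CPM, and in Teff 2 39.1 and 3.88 CPM. Of mast cell markers, 2 of 9 were analysed here (Kit and Hdc), and basophil markers were not analysed here. In these bulk libraries, fewer cells of a type and less RNA per cell cannot be told apart.

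**Figure D1:**
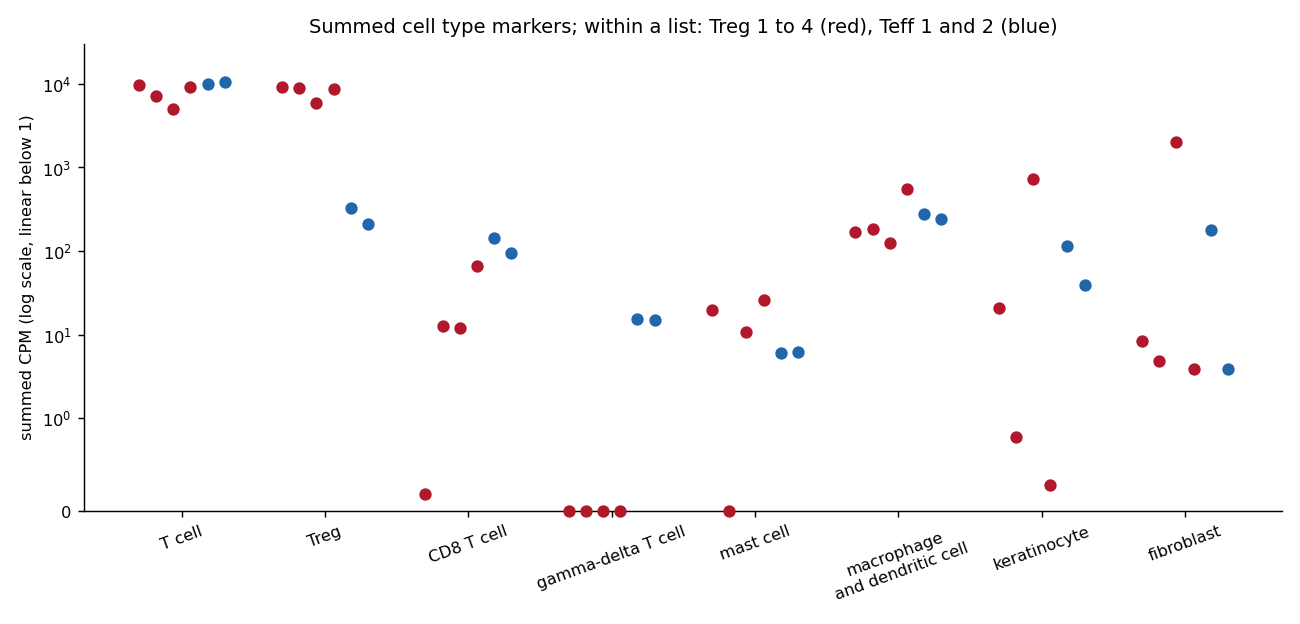
Summed level of cell type markers (vertical axis, CPM on a log scale that is linear below 1) in each library, Treg 1 to 4 in red and Teff 1 and 2 in blue. Treg 3 holds most of the keratinocyte and fibroblast transcripts, at 722 and 1994 CPM. Of 4 gamma-delta T cell markers, the 2 analysed here (Cd163l1 and Sox13) are at 0 in all 4 Treg libraries, and Sox13 also in Teff 2.

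None of the 10 genes passed the test between Tregs and Teffs in edgeR or DESeq2. The transcription factors Gata3 and Stat6 and the receptor chain Il4ra were well expressed in all 6 libraries. The cytokines Il4 and Il13 and the receptor Ptgdr2 were found in both Teff libraries and in at most 1 Treg library each. Il5, Il17rb and Hpgds varied widely among Treg libraries, and Crlf2 was low in every library. With edgeR's quasi-likelihood test, 0 of 10 were called at an adjusted p under 0.05, against 0.0425% of all genes tested. The adjusted p was 0.721 for Il13 and 0.99998 for each of the other 9 in edgeR. At an unadjusted p under 0.05 there was 1 (Il13), against 4.73% of all genes. In DESeq2, 2 had an unadjusted p under 0.05 (Il4 and Il13), against 711 of the 11775 genes tested. DESeq2 also called 0 of the 8 genes to which it gave an adjusted p, where 1.78% of genes with an adjusted p were called. The authors' deposited table likewise has no call among the 10, with the lowest false discovery rate (FDR) at 0.732 for Il13, against 0.285% of all genes called there. Foxp3, the gene marked by the reporter, was itself uncalled by edgeR (log2 fold change 4.19 ± 0.61, SE, adjusted p = 0.131). A gene left uncalled by edgeR here may thus still differ widely between the groups.

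**Figure D2:**
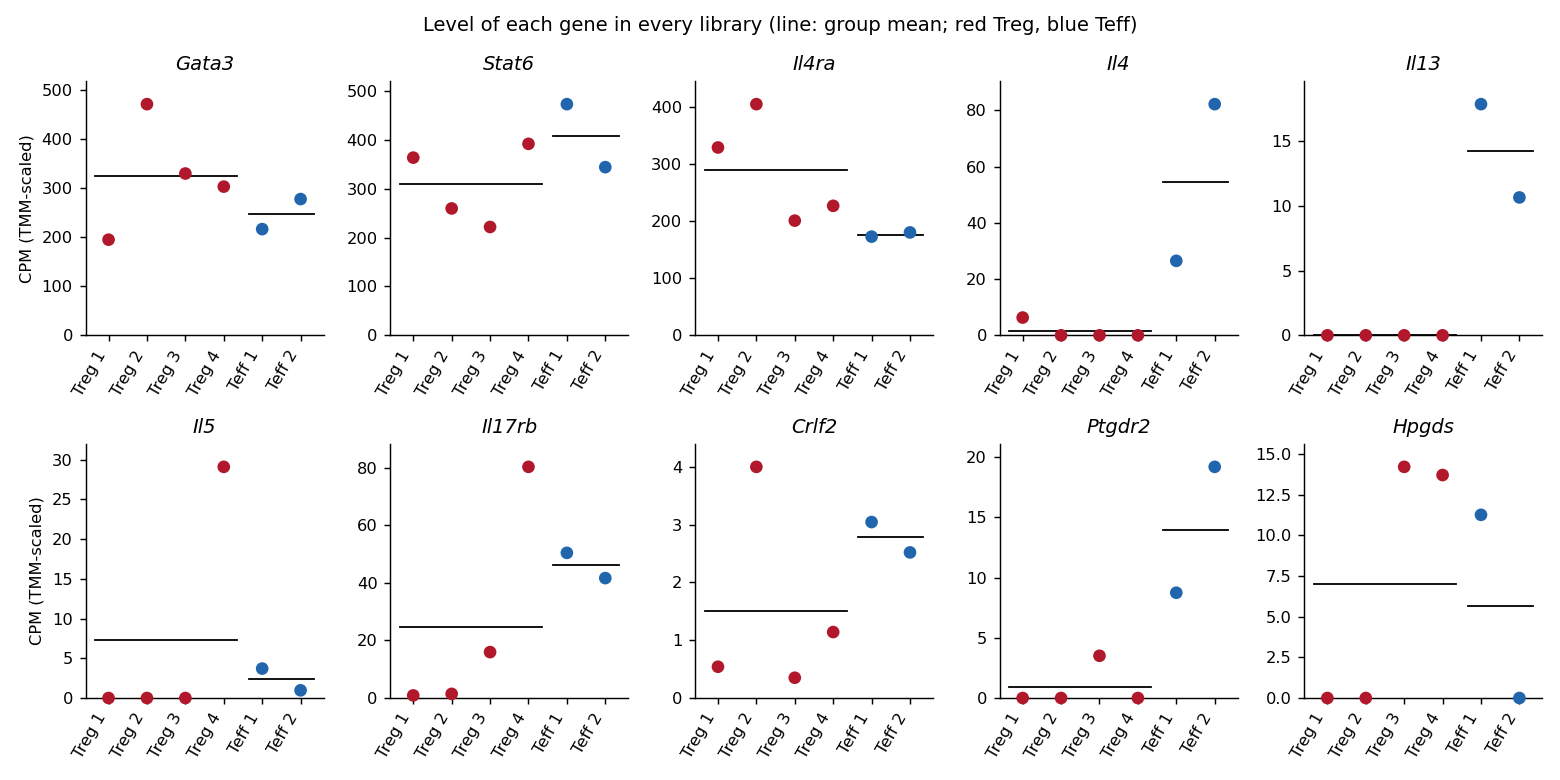
Level of each of the 10 genes (vertical axis, CPM, separate linear scale per panel) in every library, Treg 1 to 4 in red and Teff 1 and 2 in blue, with group means as lines. Gata3, Stat6 and Il4ra are present throughout, Il13 is at 0 in all 4 Treg libraries, and Il5 and Il17rb are highest in Treg 4.

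Per length of exon, which allows levels to be compared between genes, the order within Tregs was led by Gata3 (81.6 ± 28.6 CPM per kb, SD, n = 4), Stat6 (70.3 ± 18.5) and Il4ra (48.4 ± 15.7). The ranges of these 3 overlapped. Il17rb (6.65 ± 10.2) and Il5 (4.73 ± 9.47) followed, both carried by Treg 4, and Il4, Hpgds, Crlf2 and Ptgdr2 lay between 0.332 and 1.29 CPM per kb with overlapping ranges. Il13 was last at 0. In Teffs, Stat6 (92.8 ± 20.7 CPM per kb, SD, n = 2) and Gata3 (62.1 ± 10.9) led, followed by Il4 at 44.3 ± 32.1 and Il4ra at 29.4 ± 0.866. The 2 Teff values of Il4, 21.6 and 67.0 CPM per kb, enclosed those of Il4ra. Il17rb (12.4 ± 1.67) and Il13 (11.8 ± 4.23) did not differ beyond their spread, and Ptgdr2, Crlf2, Il5 and Hpgds were lower, at 5.28 to 0.876 CPM per kb.

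Gata3 encodes the factor that specifies Th2 cells and is also used by tissue Tregs. It lies on chromosome 2 from 9857078 to 9890034 (GRCm38, minus strand). Counts gave a level of 195, 471, 330 and 303 CPM for Treg 1 to Treg 4, against 216 and 278 CPM in Teff 1 and Teff 2. Both Teff values fell inside the Treg range, with Treg 1 lowest and Treg 2 highest of all libraries. The log2 fold change was 0.39 ± 0.42 (SE), with a 95% interval of -0.57 to 1.36. A difference in either direction within that interval is thus not excluded by these libraries. Without Treg 2 it was 0.16 ± 0.38 (SE).

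Stat6, the signal transducer of the IL-4 and IL-13 receptors (chromosome 10, 127642986 to 127660957), was at 364, 260, 222 and 392 CPM in the 4 Treg libraries, against 473 and 344 CPM in the Teff libraries. Treg 1 and Treg 4 lay above Teff 2, so the groups overlapped. The log2 fold change was -0.40 ± 0.37 (SE), with a 95% interval of -1.25 to 0.44, and it was -0.16 without Teff 1 and -0.63 without Teff 2.

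Il4ra, the chain shared by the receptors of IL-4 and IL-13 (chromosome 7, 125552120 to 125579474), stood at 329, 405, 201 and 227 CPM for Treg 1 to Treg 4, against 173 and 180 CPM in both Teff libraries. Every Treg library lay above both Teff libraries, which makes Il4ra the 1 gene of the 10 with that pattern. Among all genes tested, 5.51% had it. The log2 fold change was 0.72 ± 0.41 (SE), with a 95% interval of -0.22 to 1.66, and it missed the threshold. The order of libraries did not follow that of Il2rg, the common gamma chain that pairs with IL-4R alpha, which was at 5282, 1673, 2224 and 3427 CPM in Tregs, against 2733 and 2151 CPM in Teffs. The ratio of Il4ra to Il2rg counts within a library overlapped between the groups, at 0.0623, 0.242, 0.0903 and 0.0662 in Tregs, against 0.0633 and 0.0838 in Teffs. Il13ra1, which pairs with IL-4R alpha to form the type II receptor, had 9 counts over all Treg libraries and was at 8.87 and 13.6 CPM in Teffs. Its log2 fold change was -4.92 ± 2.001 (SE, edgeR adjusted p = 0.954). Il2rg and Il13ra1 were chosen after their values were seen.

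**Figure D3:**
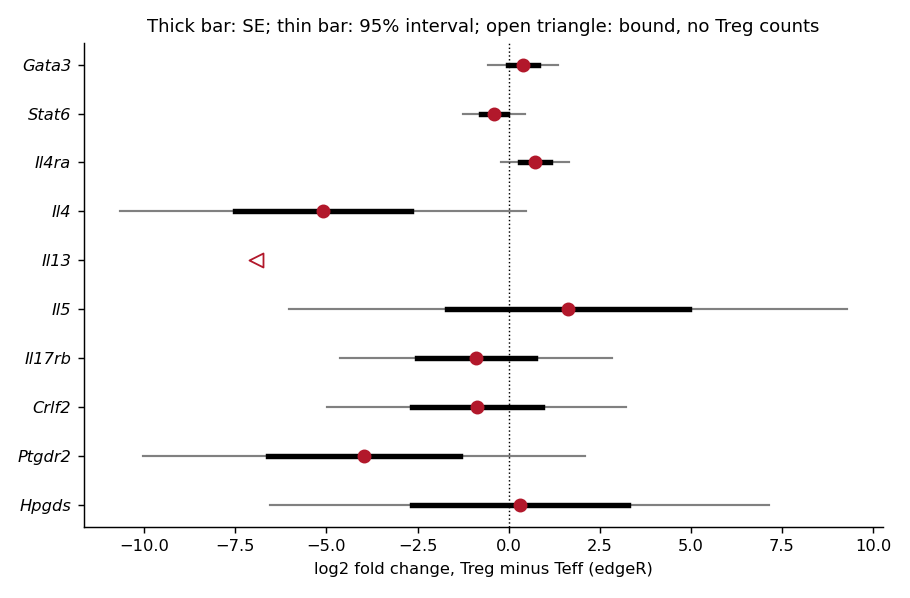
Log2 fold change of each gene (horizontal axis, Treg minus Teff) from edgeR, with SE as thick and the 95% interval as thin bars. The interval includes 0 for each of the 9 genes with a point. Il13, with no Treg counts, is drawn at its bound of at least 122-fold lower in Tregs, which takes in counting error alone. The bound stands in place of its edgeR interval of -15.8 to -3.14.

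Il4, the cytokine that drives Th2 differentiation and IgE class switching, stood at 6.31, 0, 0 and 0 CPM for Treg 1 to Treg 4, against 26.5 and 82.2 CPM in Teff 1 and Teff 2. The Treg value rests on 35 counts in Treg 1, against 624 counts over both Teff libraries. The groups did not overlap, with a log2 fold change of -5.09 ± 2.41 (SE), a 95% interval of -10.7 to 0.47 and no call in edgeR or DESeq2. Without Treg 1 no Treg counts remained. That puts the other Treg libraries at least 310.2-fold lower than Teffs, computed against 3 counts over those libraries (edgeR adjusted p = 0.448). Treg 1 held all Treg counts of Il4, so this bound follows from leaving it out and is no evidence of a difference. The spread within Teffs was itself wide, Teff 2 being well above Teff 1.

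Il13, an effector cytokine that acts on epithelium and fibroblasts, was at 0 CPM in Treg 1 to Treg 4, against 17.9 and 10.7 CPM in Teff 1 and Teff 2 (135 and 55 counts). Tregs were at least 122-fold lower, computed against 3 counts over all Treg libraries. That bound takes in counting error alone and leaves out variation between libraries. The edgeR interval of the log2 fold change of Il13, -15.8 to -3.14, reaches differences smaller than the bound. The edgeR adjusted p was 0.721 (unadjusted 0.0121). A lack of counts in all 4 Treg libraries was found for 0.756% of all genes tested.

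Il5, the growth and survival factor of eosinophils, differed from Il4 and Il13 in Treg 4. It had 0 counts in Treg 1, Treg 2 and Treg 3 and 204 counts in Treg 4, which is 29.1 CPM, against 3.71 and 0.969 CPM in Teffs (28 and 5 counts). The single Treg library with counts was thus above both Teff libraries and the other 3 were below them. The log2 fold change was 1.63 ± 3.32 (SE), with a 95% interval of -6.03 to 9.29. Without Treg 4 no Treg counts remained and the direction turned. The other Treg libraries were then at least 15.1-fold lower than Teffs against 3 counts over those libraries. Treg 4 held all Treg counts of Il5, so this turn follows from leaving it out and is no evidence of a difference. Counts in 1 Treg library alone were found for 7.19% of genes tested. Exons of Gm12214, annotated on the opposite strand, overlap 27.1% of the exonic bases of Il5, and no source used here gives the strand setting of the counting.

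These cytokine genes lie within 122.1 kb on chromosome 11 of GRCm38, with Il4 from 53602982 to 53618669, Il13 from 53631324 to 53634702 and Il5 from 53720794 to 53725106. Rad50, a DNA repair gene whose body holds the Th2 locus control region, lies between Il13 and Il5. It was found in every library, at 17.7, 20.2, 27.4 and 10.6 CPM per kb in Tregs, against 34.97 and 39.99 CPM per kb in Teffs. Its groups did not overlap (log2 fold change -0.98 ± 0.46, SE, not called by edgeR or DESeq2). Kif3a, a kinesin subunit gene beside Il4, was at 5.33 to 27.4 CPM per kb in Tregs, against 12.2 and 15.9 in Teffs. Irf1, an interferon-induced factor gene beyond Il5, was at 205 to 350 CPM per kb in Tregs, against 136 and 232 in Teffs. Sept8, a septin gene beyond Kif3a, was at 1.27 CPM per kb or less in Tregs, against 3.02 and 0.223 in Teffs. Il4 and Il13, at 0 in most or all Treg libraries, are adjacent along this stretch. Rad50, found in every library, separates them from Il5, which was also at 0 in most Treg libraries.

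**Figure D4:**
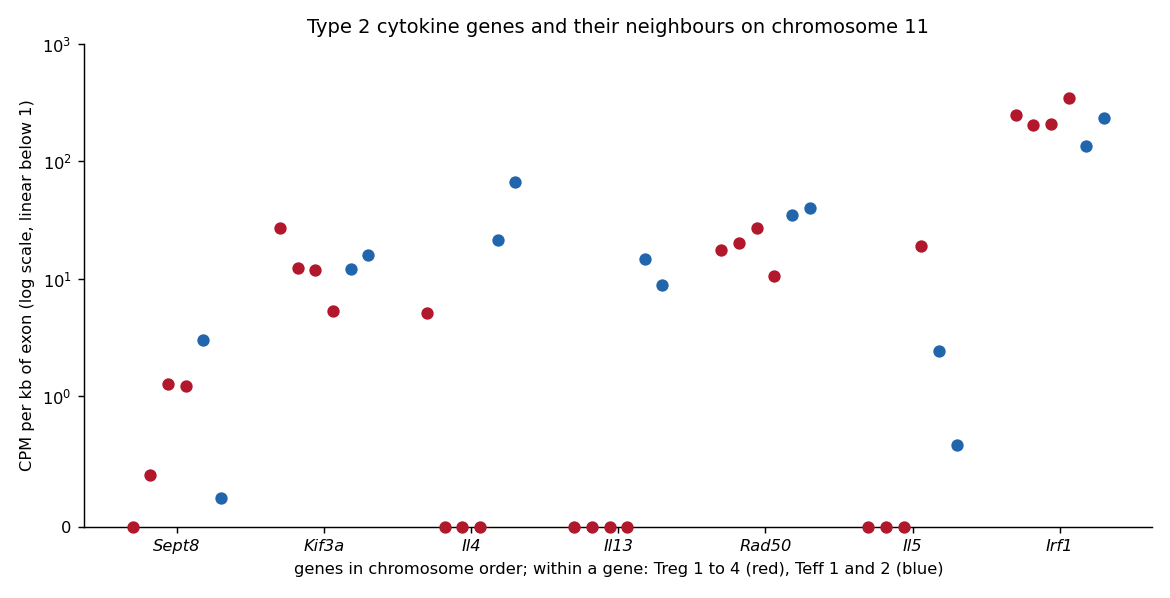
Level per kb of exon (vertical axis, CPM per kb on a log scale that is linear below 1) of 7 neighbouring genes in chromosome order, with Treg 1 to 4 in red and Teff 1 and 2 in blue within each gene. Il4, Il13 and Il5 are at 0 in most Treg libraries while Kif3a, Rad50 and Irf1 between and beside them are found in all.

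The receptors for alarmins did not follow one pattern. Il17rb, which pairs with IL-17RA to bind IL-25, stood at 0.902, 1.44, 16.0 and 80.3 CPM for Treg 1 to Treg 4, against 50.4 and 41.7 CPM in Teffs. Treg libraries thus differed by 89.1-fold, with Treg 4 above and the other 3 below both Teff libraries. The log2 fold change was -0.90 ± 1.62 (SE), and it was -2.93 ± 1.61 without Treg 4, in both cases uncalled.

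Il1rl1, the IL-33 receptor chain, was by contrast even among Tregs, at 511, 320, 430 and 346 CPM, against 18.0 and 17.1 CPM in Teffs. It is the 1 gene of the pathway lists called by edgeR (log2 fold change 4.52 ± 0.44, SE, adjusted p = 0.0378). DESeq2 called it too (adjusted p = 4.97e-26), and the authors' deposited table gives it an FDR of 1.94e-05. With any 1 library left out its log2 fold change was 4.38 to 4.61 and its edgeR adjusted p 0.0791 to 0.396, in fits that called 0 to 2 of all genes. The ratio of Il1rl1 to Il17rb counts within a library was 567, 222, 27.0 and 4.31 in Treg 1 to Treg 4, against 0.357 and 0.409 in Teffs. The values of Treg 1 and Treg 2 rest on 5 and 9 counts of Il17rb. All 4 Treg ratios were above both Teff ratios, a measure chosen after the values were seen and given without a test.

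Crlf2, the TSLP receptor chain, was low in every library, at 0.541, 4.0, 0.351 and 1.14 CPM in Tregs, against 3.04 and 2.52 CPM in Teffs. These values rest on 2 to 25 counts per library, and the groups overlapped (log2 fold change -0.87 ± 1.78, SE). Without Treg 2, the highest library, it was -2.002 ± 1.67 (SE), uncalled by edgeR. Per length, Crlf2 was at 0.235 to 2.68 CPM per kb in Tregs, against 2.04 and 1.69 in Teffs. Its partner Il7r was at 145 to 310 CPM per kb in Tregs, against 86.8 and 103 in Teffs, so the 2 chains of the receptor differed widely in level in every library.

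In Treg 4, the library with Il5 counts and the highest Il17rb, markers of other lymphoid and myeloid cells were uneven. Of them, 3 had counts there and none in the other Treg libraries. Cd8a, the CD8 alpha chain, was at 43.1 CPM there, against 66.1 and 45.2 CPM in Teffs. Klrb1c, the NK cell receptor NK1.1, was at 24.0 CPM, against 1.59 and 0 CPM in Teffs, and Itgax, the dendritic cell integrin CD11c, at 24.7 CPM, against 2.78 and 0 CPM in Teffs. Other markers of the same cell types were mixed, some being highest of the Tregs in Treg 4 and some not. Cd8b1, the CD8 beta chain, was at 22.5 CPM in Treg 4 and at 0.180 to 12.8 CPM in the other Treg libraries, and Ncr1, an NK cell receptor, was at 0 in all 4. Macrophage and dendritic cell markers summed to 555 CPM in Treg 4, against 126 to 185 CPM in the other Treg libraries and 279 and 239 CPM in Teffs. Of the 555 CPM, 464 CPM came from Lyz2, the lysozyme of myeloid cells. Csf1r, the macrophage growth factor receptor, had 0.713 CPM in Treg 4, while Treg 1 had 78.1 CPM, Treg 2 had 0 and Treg 3 had 33.1 CPM, and Fcgr1, a macrophage Fc receptor, was at 0 in Treg 4. The keratinocyte and fibroblast sums were 0.285 and 3.85 CPM there. The part of other cells in the Il5 and Il17rb values of Treg 4 was not tested.

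Ptgdr2 encodes CRTH2, the prostaglandin D2 receptor that marks Th2 cells, ILC2s, eosinophils and basophils. It stood at 0, 0, 3.51 and 0 CPM for Treg 1 to Treg 4, against 8.74 and 19.2 CPM in Teffs. The groups did not overlap, and the Treg level rests on 20 counts in Treg 3, against 165 counts over both Teff libraries. The log2 fold change was -3.97 ± 2.63 (SE), with a 95% interval of -10.02 to 2.09. Without Treg 3, the library with the keratinocyte and fibroblast transcripts, no Treg counts remained. That puts the other Treg libraries at least 81.3-fold lower than Teffs against 3 counts over those libraries (edgeR adjusted p = 0.380). Treg 3 held all Treg counts of Ptgdr2, so this bound follows from leaving it out and is no evidence of a difference. Exons of Ccdc86 on the opposite strand overlap 39.0% of the exonic bases of Ptgdr2. Ptgdr2, Il4 and Il13 were the 3 genes of the 10 with all Treg libraries below both Teff libraries, a pattern found for 9.49% of all genes tested.

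Hpgds, the haematopoietic prostaglandin D synthase known from mast cells and antigen-presenting cells, stood at 0, 0, 14.2 and 13.7 CPM for Treg 1 to Treg 4, against 11.3 and 0 CPM in Teff 1 and Teff 2. It was therefore present or absent by library and not by group (log2 fold change 0.31 ± 2.97, SE), and the sign of the difference changed when Treg 3, Treg 4 or Teff 2 was left out. Kit, the stem cell factor receptor of mast cells, had counts in the same 3 libraries alone, at 8.41 CPM in Treg 3, 26.1 CPM in Treg 4 and 0.927 CPM in Teff 1. The other mast cell marker analysed, Hdc, which encodes histidine decarboxylase, did not follow these libraries, at 19.8, 0, 2.28 and 0 CPM in Tregs, against 5.16 and 6.20 CPM in Teffs. Keratinocyte and fibroblast markers are at or near 0 in Treg 4, where Hpgds was as high as in Treg 3. The part of other cells in the Hpgds values was not tested.

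Per library, counts were found for 6, 5, 7 and 7 of the 10 genes in Treg 1 to Treg 4, against 10 and 9 in Teff 1 and Teff 2. No library of Tregs had counts for more than 1 of the 3 cytokines. Both Teff libraries had counts for all 3.

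Of the other genes of the pathway, 69 were listed in 9 groups by role and 51 of them tested, of which Il1rl1 rose and 0 fell in edgeR. The lists pool type 2 genes with Th1 counterparts and neighbours of the cytokine genes. Over this pool the median log2 fold change was 0.05, against 0.07 over all genes tested, and that of the 10 genes was -0.64. By list, it was 0.97 for transcription factors, 0.59 for signalling, 0.49 for prostaglandin genes and 0.37 for receptor partners. It was -0.34 for chemokine receptors, -2.68 for other cytokines (2 tested), -0.93 for Th1 counterparts and -0.48 for neighbours. The groups did not overlap for 11 of the 51 with Tregs higher, against 5.51% of all genes tested, and for 9 with Tregs lower, against 9.49%. Th1 counterparts held 0 of the 11 and 3 of the 9, and the neighbours held 0 and 1. DESeq2 called 7 of the 50 to which it gave an adjusted p higher (Il1rl1, Irs2, Maf, Nfil3, Areg, Ccr3 and Ptger2) and Ifng lower, against 1.78% of all genes called by it in either direction.

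Among the 10 tested transcription factors that act with or downstream of GATA3, 8 log2 fold changes were positive and 2 negative (53.4% of all genes tested were positive). EdgeR called 0 of them, and DESeq2 called Maf and Nfil3 higher in Tregs. Maf, which activates Il4 in Th2 cells and Il10 in Tregs, was at 601, 1166, 444 and 743 CPM in Tregs, against 135 and 304 CPM in Teffs (log2 fold change 1.75 ± 0.53, SE, edgeR adjusted p = 0.721, DESeq2 adjusted p = 0.0292). Rora, the nuclear receptor of ILC2s and skin Tregs, was at 791 to 1229 CPM in Tregs, against 469 and 589 CPM in Teffs. All Treg libraries were above both Teff libraries in both genes, and Rora passed in neither edgeR nor DESeq2. Ets1, a lymphoid factor, overlapped at 1219 to 4450 CPM in Tregs, against 2588 and 1607 CPM in Teffs.

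The signalling group had 8 positive and 4 negative log2 fold changes among 12 tested, with 0 calls in edgeR and 1 in DESeq2 (Irs2, an adaptor of the IL-4 receptor, log2 fold change 6.55, adjusted p = 0.000206). Cish, a STAT5-induced inhibitor of cytokine signals, was at 794 to 961 CPM in Tregs, against 749 and 628 CPM in Teffs. Jak1, the kinase bound to IL-4R alpha, overlapped at 293 to 695 CPM in Tregs, against 541 and 640 CPM in Teffs. Ptpn6, the phosphatase SHP-1 that dampens STAT6, was at 148 to 402 CPM in Tregs, against 444 and 435 CPM in Teffs, with no overlap and no call in edgeR or DESeq2.

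Further type 2 cytokines differed in direction. Csf2, encoding GM-CSF, was at 0 in every Treg library, against 10.99 and 13.2 CPM in Teffs. Areg, an epidermal growth factor receptor ligand, was by contrast at 55.7 to 172 CPM in Tregs, against 3.44 and 11.2 CPM in Teffs. EdgeR called neither gene, and DESeq2 called Areg (adjusted p = 0.000241) but not Csf2. Il9 had 300 counts in Teff 1 and 0 in every other library. Of the chemokine receptors of type 2 cells, Ccr8 (405 to 901 CPM in Tregs, against 597 and 957 CPM in Teffs) and Ccr4 (105 to 161 CPM, against 195 and 140 CPM) overlapped between the groups. Ccr3, the eotaxin receptor, was at 95.2 to 217 CPM in Tregs, against 0 and 1.36 CPM in Teffs (edgeR adjusted p = 0.225, DESeq2 adjusted p = 2.2e-12). DESeq2 called neither Ccr8 nor Ccr4.

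Of 4 prostaglandin genes tested edgeR called 0, and DESeq2 called Ptger2, a receptor of prostaglandin E2, higher in Tregs (log2 fold change 5.49, adjusted p = 0.0323). Ptger4, another receptor of that ligand, was at 21.6 to 217 CPM in Tregs, against 89.1 and 212 CPM in Teffs. Ptgs1, encoding cyclooxygenase 1 upstream of Hpgds, was at 0 to 110 CPM in Tregs, against 23.0 and 7.36 CPM in Teffs. Hpgd, which degrades prostaglandins, was at 0, 0, 140 and 2.71 CPM in Tregs, against 88.4 and 1.36 CPM in Teffs. Both Ptgs1 and Hpgd were highest in Treg 3, the library with the most keratinocyte and fibroblast transcripts.

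The Th1 counterparts had 1 positive and 8 negative log2 fold changes among 9 tested, where 46.6% of all genes tested were negative, and a median of -0.93. The 10 genes had 4 positive and 6 negative, and the difference between these lists was not tested. EdgeR called 0 of the Th1 genes, and DESeq2 called Ifng, the cytokine of Th1 cells, lower, at 10.2 to 47.9 CPM in Tregs, against 232 and 393 CPM in Teffs (its log2 fold change in DESeq2 was -3.39, with an adjusted p of 0.00074). Il18r1, the IL-18 receptor chain, was at 72.8 to 261 CPM in Tregs, against 574 and 534 CPM in Teffs (log2 fold change -1.44 ± 0.50, SE, edgeR adjusted p = 0.721). Ifngr1, a chain of the interferon gamma receptor, overlapped at 507 to 911 CPM in Tregs, against 802 and 630 CPM in Teffs. The ratio of Gata3 to Tbx21 counts within a library, which no scaling changes, was 6.84, 25.2, 134 and 26.5 in Treg 1 to Treg 4, against 4.20 and 2.70 in Teffs. All 4 Treg ratios exceeded both Teff ratios. Gata3 itself overlapped between the groups. Tbx21 did not, at 28.5, 18.7, 2.45 and 11.4 CPM in Tregs, against 51.5 and 103 CPM in Teffs, with no call in edgeR or DESeq2. Of 3 within-library ratios computed, Gata3 to Tbx21 and Il1rl1 to Il17rb separated the groups. The Gata3 to Tbx21 ratio was chosen after the values were seen and carries no test, and the Treg 3 value rests on 14 counts of Tbx21.

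**Figure D5:**
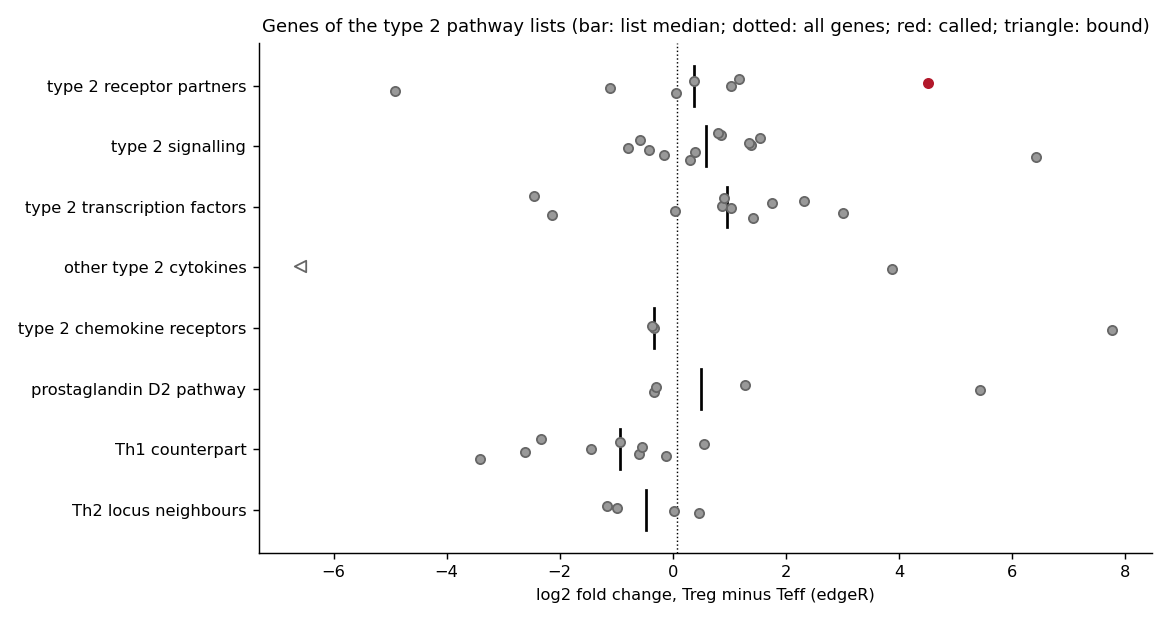
Log2 fold change (horizontal axis, Treg minus Teff, edgeR) of each tested gene of the pathway lists, grouped by role, with the list median as a bar where a list has at least 3 tested genes. Il1rl1, in red, is the called gene, Th1 counterparts lie mostly below 0, and Csf2, with no Treg counts, is drawn as a triangle at its bound.

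The genes whose pattern over the 6 libraries was most like that of Gata3 were Atrx, Lrrc8c, Rbm39, Acadl and Trex1, among 4458 genes with a mean of at least 50 CPM. Their Pearson correlations of log2(CPM + 1) with Gata3 were 0.982 to 0.992 over 6 libraries that share their depth and library quality. Atrx, a chromatin remodeller, was at 728, 1560, 1080 and 1090 CPM in Tregs, against 766 and 1013 CPM in Teffs. Like Gata3 it was lowest in Treg 1 and highest in Treg 2, and its groups overlapped.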

How the data were processed

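Sorted skin Tregs (4 libraries) and Teffs (2) were sequenced after column purification and a SMARTer ultra-low-input cDNA kit, per the labels' protocols. Per the submitters' processing notes, the build was mm10 and the tools were HTSeq (version 0.6.1), SAMtools (version 0.1.19.0), Bowtie2 (version 2.1.0.0), TopHat2 (version 2.0.12) and CASAVA (version 1.8.2), with no role stated. No source used here gives the annotation or the strand setting.

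The deposited table holds raw counts for each gene, judged from its headers and values. The same table holds the authors' log2 fold change, mean log2 CPM, p-value and FDR, per the file headers. Its 3 rows that name no gene took 88.0% to 90.2% of entries and were left out.

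The analysis used edgeR 4.0.16 and limma 3.58.1 in R 4.3.3: filterByExpr (smallest count 10), TMM, and the quasi-likelihood F test on group with all 6 libraries, coded Treg minus Teff, with Benjamini-Hochberg adjustment over 11775 genes and a threshold of 0.05. The SE is the absolute log2 fold change over the square root of F. The code was tested on simulated data. DESeq2 1.42.0, other scalings and filters, left-out libraries and a replicate block were alternatives. An exact permutation test of 4 against 2 cannot go below p = 0.0667 (two-sided) and was not used. Positions and exonic lengths are from GENCODE M21 (GRCm38, the sequence of mm10), and promoter windows from RefSeq (all 10 genes matched; for Il4, the window of 2 nearest the annotated 5' end). The cutoff of 3 counts takes in counting error alone, because PCR duplicates are not separate molecules.

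Genes and lists were chosen with earlier results of these data known. All 10 genes were named. Of each pathway list, the text names called genes or, with none, the 3 tested genes with the highest mean CPM, plus the 5 most like Gata3; 1 gene this rule takes is not reported here. Other named genes were chosen after their values were seen.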

Additional observations from a re-analysis of the deposited data

Results flagged for a closer look

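In the 4 Treg libraries, 5 of the 13 quantities examined had 1 library far from the others, its gap to the nearest, as a share of the group's range, being over Dixon's 95% critical value. For continuous values chance flags about 5% of groups of 4. A gene with counts in 1 Treg library alone, as 7.19% of all genes tested are, meets this criterion whatever its level, so the number for the 3 genes below is not read against that share. Il4 was at 6.31 CPM in Treg 1 and at 0 in the other Treg libraries. Il5 was at 29.1 CPM in Treg 4 and at 0 in the others. Ptgdr2 was at 3.51 CPM in Treg 3 and at 0 in the others. Each of these 3 genes was thus found in a different Treg library. Keratinocyte markers summed to 722 CPM and fibroblast markers to 1994 CPM in Treg 3.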

How the results depend on the processing

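For the 10 genes, 119 of 122 log2 fold changes recomputed under alternatives, where the gene passed the filter, kept their direction and stayed uncalled, and 0 of the 10 were called under any alternative run. The 3 that changed sign were all Hpgds, which ranged from -0.74 to 8.37 with 1 library left out; the upper end comes from leaving out Teff 1, after which Teffs have no counts, so it is no fold. Over all genes, edgeR called 5, against 183 with DESeq2, 19 with no filter, 9 at an adjusted p under 0.1, and 0 to 2 with 1 library left out. Of the pathway lists it called 1, against 8 with DESeq2, 2 with no filter and 0 with any 1 library left out. With Treg 3 and Teff 1 left out together, a choice made after seeing the data, both counts were 0; that fit has 1 Teff library, assumed to vary like the Treg libraries, and so do the fits that leave out 1 Teff library. With a replicate block, fitted to Treg 1, Treg 2, Teff 1 and Teff 2, 1 gene was called over all genes and 0 of the pathway lists. Labels do not say that the numbers mark pairs, and the differences between libraries 1 and 2 of each group correlated at 0.0923 over genes. The median log2 fold change of all genes was 0.07 with TMM and -0.04 with upper-quartile scaling. Of the 10 genes Crlf2 had the fewest counts, 2 to 25 per library.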
